A study of Mus musculus with 22 samples.

Results

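The basement membrane and extracellular matrix genes examined here were 37 genes picked by symbol. They code for collagen chains, laminin chains, nidogens, heparan sulfate proteoglycans, the enzymes that modify and cross-link collagen, and a few other matrix glycoproteins. All 37 symbols were found in a table of 18487 genes, 36 of them reached the level needed for testing, and Col6a2 (0 to 7 in every library) was described but not tested. RNA enriched with oligo-dT beads had been sequenced from the mouse embryonic stem (ES) cell line E14, with 2 libraries for each of 10 compounds that act on chromatin and 2 for a group labelled NC. The compounds were Bromosporine (a ligand of bromodomains, which read acetylated lysine), Valproate (an inhibitor of histone deacetylases), CPTH2 and Garcinol (inhibitors of histone acetyltransferases), Chaetocin and UNC0379 (inhibitors of histone lysine methyltransferases), MS023 (an inhibitor of type I arginine methyltransferases), DZNep (which blocks S-adenosylhomocysteine hydrolase), IOX1 (an inhibitor of oxygenases that depend on oxoglutarate) and OICR, a label without a full compound name. NC was the only group without a named compound and served as the reference. Doses and exposure times were not given in the labels, no genotype was stated beyond the cell line, and according to the study's methods its ES cells were grown in serum with LIF. The labels do not say whether the 2 libraries of a group came from separate cultures, so the p-values measure only the spread between libraries.

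A basement membrane is a thin sheet of matrix under epithelia and around the early embryo. Laminin trimers (an alpha, a beta and a gamma chain) and collagen IV form separate networks in it, and nidogens and the proteoglycans perlecan (Hspg2) and agrin (Agrn) link the networks. Laminin and collagen IV are among the first matrix proteins that the mouse embryo makes, in the endoderm that faces the inner cell mass, and pluripotent cells in culture also make laminin. Fibrillar collagens (types I, III and V) belong mainly to connective tissue. Collagen chains are hydroxylated inside the cell by Plod and P3h enzymes, trimmed outside by Bmp1 with its enhancer Pcolce, and cross-linked by lysyl oxidases.

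The deposited values are normalised read counts with nearly the same distribution in every library (median 409 and largest value 221616 in all, 1065 to 1707 genes at 0), so the depth of single libraries is unknown. Transcripts of pluripotent cells were high in all 22 libraries, with a sum over 10 markers of 172806 to 280153, and Pou5f1 between 25663 and 39262. The summed level of 10 primitive and parietal endoderm markers was 281 to 1030, and that of 9 fibroblast and mesenchyme markers 132 to 562, where Prrx1 and Cnn1 were each listed at 0 in 12 libraries and S100a4 in 18. Sums were higher for 4 endothelial markers (2855 to 7497, with Pecam1 at 2520 to 6150) and 7 trophoblast markers (3249 to 5947, with Tfap2c at 2576 to 5480). Of the endothelial markers, Cdh5 lay between 1 and 12. In bulk RNA of this kind, fewer cells of a type and less RNA per cell cannot be told apart.

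Basement membrane genes headed the set in abundance. Per kilobase of its longest coding transcript, Lamc1, the gamma chain shared by most laminins, had the highest level, 7060 and 6470 in NC and a median of 4970 over the 22 libraries (range 3740 to 7060). Nid1 (median 3190 per kb) and Nid2 (3100), the nidogens that bind that chain, came next, and their ranges overlapped each other. They were followed by Pcolce (3020), by Sparc (2800), a glycoprotein that binds collagen, by Crtap (1980), a partner of the prolyl hydroxylase P3h1, and by Agrn (1680). Lamc1 exceeded the alpha chains Lama1 and Lama5 and the beta chain Lamb1 in 22 of 22 libraries, by at least 3.7 times per kb. Lama5 and Lama1 were at like levels, with a median ratio of 0.95 and Lama5 the higher in 10 of 22 libraries. Col18a1, which carries the endostatin fragment, was 10.4 to 52.2 times as high per kb as Col4a1.

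The fibrillar collagens covered a wide range. Col5a2 had a median of 221 per kb and Col5a1 of 45.7, above Col4a1 (32.1) and Col4a2 (28.7) of the basement membrane. Col3a1 had a median of 73.9 per kb, but its values were split. Before division by length, 9 libraries stood at 2 to 4 and 13 at 307 to 851. Col1a1 had a median of 4.05 per kb and Col1a2 of 2.24, and the lysyl oxidases Loxl1, Loxl2 and Loxl3 had medians of 8.8, 8.47 and 16.1. Lox and P3h2 had a median of 0. Of the 37 genes, 7 were listed at 0 in at least 1 library.

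**Figure D1:**
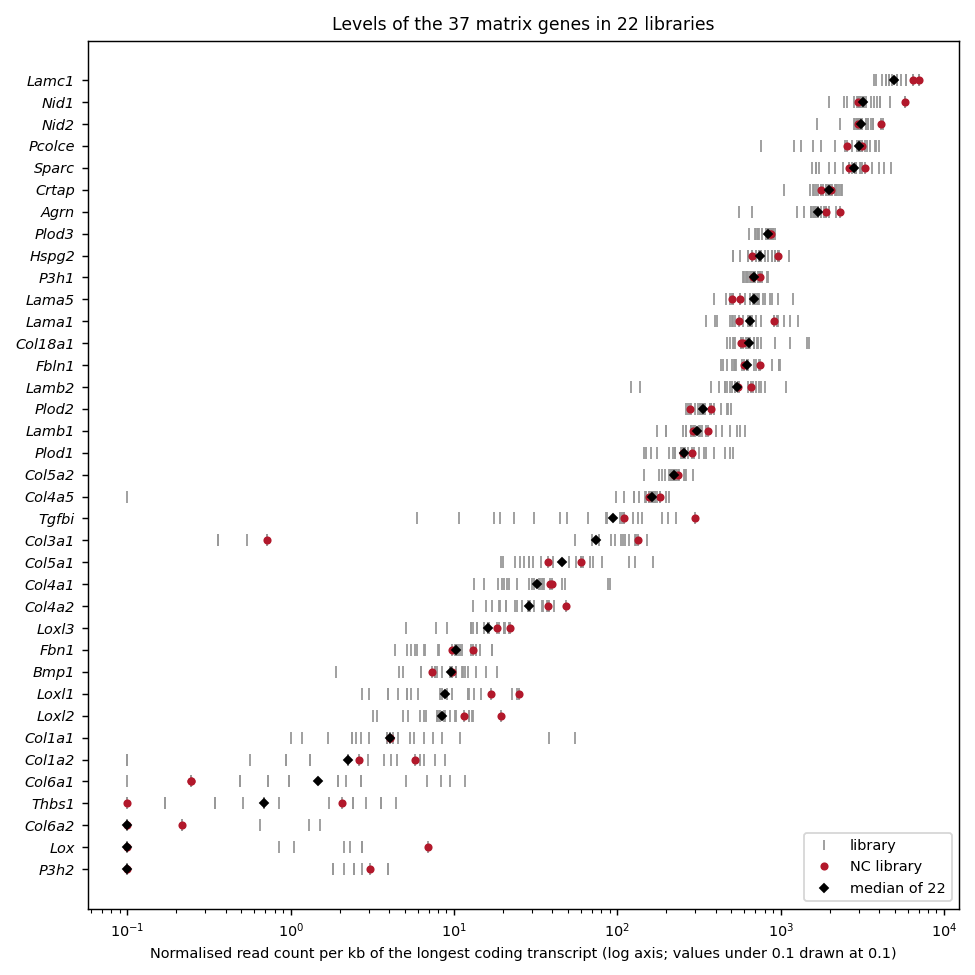
Level of each of the 37 genes in normalised read counts per kb (log axis), with a grey tick for each of the 22 libraries, red points for NC and a black diamond for the median. Lamc1, Nid1 and Nid2 stand at the top (medians 4970, 3190 and 3100) and Lox, P3h2 and Col6a2 at the bottom (median 0).

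Differences from NC were tested with limma on all 22 libraries together. A call required a Benjamini-Hochberg (BH) adjusted p below 0.05 and more than a 2-fold difference. Changes are log2 ratios of (value + 1), so those of weakly expressed genes come out too small. With DZNep 6 of the 36 genes were called (16.7%), 1 higher and 5 lower, beside 11.4% of all 17275 genes tested (5.27% higher, 6.14% lower). Bromosporine gave 3 calls, all lower (8.33%, beside 3.34% of all genes, of which 2.77% were lower and 0.573% higher). Valproate also gave 3, of which 1 was higher and 2 lower (8.33%, beside 5.28% of all genes, 2.73% higher and 2.55% lower). MS023 gave 1, higher (2.78%, beside 0.973%). These are small numbers of genes, and the shares among the matrix genes and among all genes were not compared by a test. Of the 13 calls, 12 were lost when only the 4 libraries of a compound and NC were fitted, which leaves little to estimate the spread from, and Lamb2 with DZNep was the exception.

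The other 6 compounds gave 0 calls by limma. The share of all genes called was 0.388% for OICR, 0.116% for IOX1, 0.0174% for Chaetocin, 0.00579% for CPTH2, 0.00579% for Garcinol and 0 for UNC0379. At an unadjusted p under 0.05 there were 9 matrix genes for OICR (25%, beside 10.7% of all genes), 8 for UNC0379 (22.2%, beside 6.08%), 5 for IOX1 (13.9%, beside 12.4%), 3 for Garcinol (8.33%, beside 3.62%), 2 for Chaetocin (5.56%, beside 4.72%) and 1 for CPTH2 (2.78%, beside 0.944%). Altogether 26 of the 36 genes were called with 0 compounds, 8 with 1, Col1a1 with 2 and Tgfbi with 3. In limma's F test over the 11 groups, 17 of 36 differed (47.2%, beside 29.7% of all genes), and Col1a1 (BH-adjusted p = 3.24e-05) and Agrn (3.99e-05) had the lowest values.

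The median log2 change of the 36 genes was -0.41 with Bromosporine, with 28 changes below 0 and 8 above, beside 0.01 for all genes. It was 0.07 with DZNep and 0.02 with Valproate, and between -0.26 (IOX1) and -0.08 (CPTH2) with the other 7 compounds. All of these comparisons use the same NC libraries. Set against the mean of the other compounds in place of NC, the median was 0.15 for CPTH2, 0.07 for Chaetocin, 0.07 for Garcinol, 0.04 for OICR, 0.04 for UNC0379 and 0 for MS023, so the negative sign in these 6 was relative to NC only. By the same reference it was -0.2 for Bromosporine, -0.11 for IOX1, 0.25 for DZNep and 0.28 for Valproate.

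**Figure D2:**
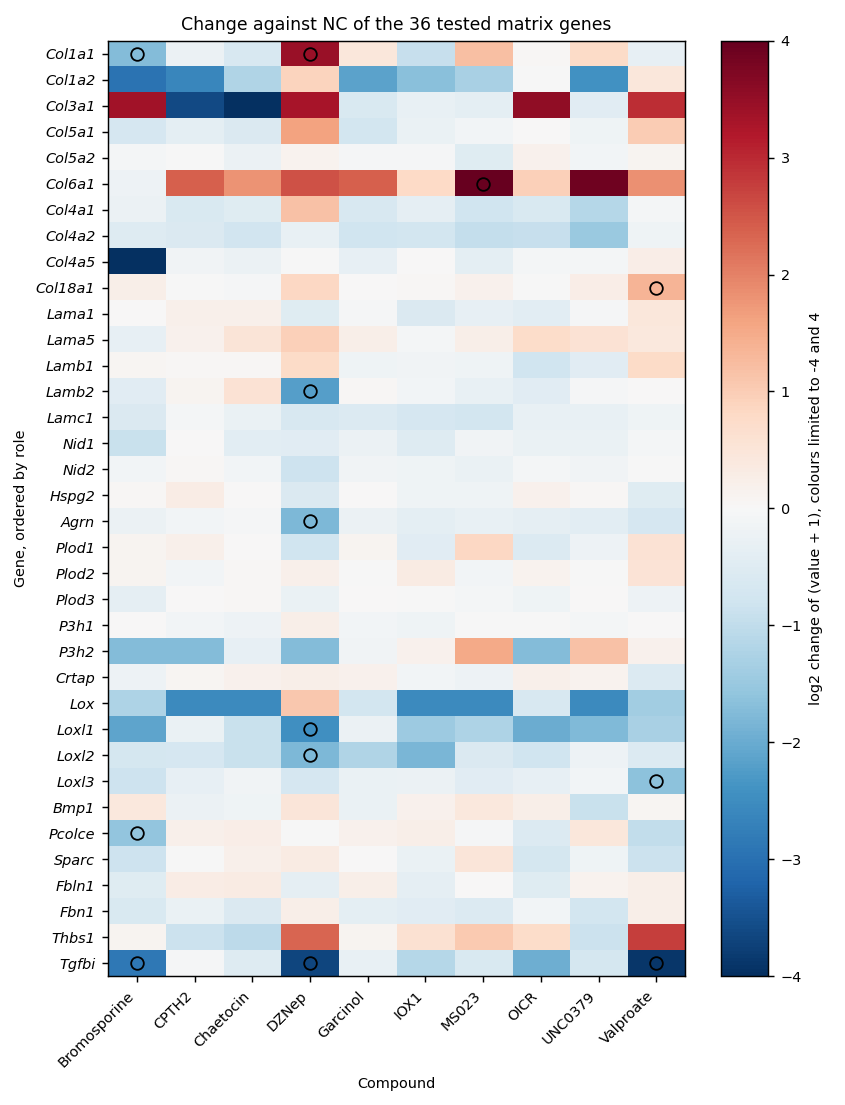
Log2 change of (value + 1) against NC for the 36 tested genes (vertical, ordered by role) and the 10 compounds (horizontal), with red for higher and blue for lower. Open circles mark the 13 calls, of which 6 are with DZNep and 3 each with Bromosporine and Valproate, and strong colours without a circle, as for Col3a1 with Bromosporine or Tgfbi with OICR (log2 change -1.94), did not pass the test.

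Among the basement membrane collagens, Col18a1 rose with Valproate. It is a protein-coding gene on chromosome 10 (77052178 to 77166548, minus strand, GRCm38). Valproate gave 8389 and 8118, against 3185 and 3274 in NC, with both Valproate libraries above all of the other 20 (2638 to 6377). The log2 change was 1.35 (SE 0.22, limma BH-adjusted p = 0.0018), or 2.56-fold. The highest of the other 20 values belonged to DZNep, at 5144 and 6377, which passed the adjusted p (limma BH-adjusted p = 0.0137) but not the fold (log2 change 0.83, SE 0.22).

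Col4a1 and Col4a2 code for the 2 chains of the main collagen IV trimer and lie head to head on chromosome 8, with annotated first bases 21 bases apart and overlapping. Their values were close to each other in most libraries, and the ratio of Col4a1 to Col4a2 was 0.782 to 1.44 in the 20 libraries outside DZNep. With DZNep it was 3.13 and 2.25. Col4a1 stood at 582 and 595 with DZNep and at 88 to 318 in all other libraries (257 and 265 in NC), whereas Col4a2 with DZNep, at 186 and 265, lay inside the range of the others. The log2 change of Col4a1 against NC was 1.17 (SE 0.49), which was not called (limma BH-adjusted p = 0.102). It was called directly against Bromosporine (log2 change of Bromosporine against DZNep -1.42, SE 0.49, limma BH-adjusted p = 0.0441). In a fit with the replicate number as a block, Col4a1 was also called with DZNep against NC.

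The stretch between and around both starts, taken from RefSeq promoter windows on GRCm38.p6 (chr8:11312797-11312834, plus strand, 38 bases), is shown because both genes begin in it. Capitals mark the GC box, the letters GGGCGG on either strand, to which Sp1-like factors can bind.
Col4a1 and Col4a2: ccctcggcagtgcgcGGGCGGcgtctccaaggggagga

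Col4a5, an X-linked chain of another collagen IV trimer, was listed at 0 in Bromosporine replicate 1 and at 889 in replicate 2, and lay between 642 and 1353 in the remaining 20 libraries. It was not called, and the single 0 was left as deposited.

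Among the laminin chains, Lamb2 fell with DZNep. This beta chain, known from muscle and kidney basement membranes, is coded on chromosome 9 (108479736 to 108490530, plus strand). Its values were 3688 and 3094 in NC and 774 and 687 with DZNep, below all of the other 20 libraries (2102 to 6051). The log2 change was -2.21 (SE 0.28, limma BH-adjusted p = 0.000122), a 4.63-fold fall. The other beta chain, Lamb1, had 3131 and 3264 with DZNep, against 2081 and 1690 in NC (log2 change 0.77, SE 0.24, limma BH-adjusted p = 0.0349), so it passed the adjusted p but not the fold.

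Per kilobase, Lamb2 was 1.82 and 1.88 times as high as Lamb1 in NC, and 0.956 to 3.09 times as high in the 20 libraries outside DZNep. With DZNep the order turned, to ratios of 0.254 and 0.216. Lama5 moved the other way from Lamb2 with DZNep, at 13581 and 10157 against 5714 and 6412 in NC. Its log2 change of 0.96 (SE 0.18, limma BH-adjusted p = 0.00171) stayed just under the fold of 2, and against Bromosporine, where it was 5252 and 4436, it was called. Lamc1 was 33603 and 31970 with DZNep and 53841 and 49312 in NC (log2 change -0.65, SE 0.16, limma BH-adjusted p = 0.00909). Lamc1 also passed the adjusted p with MS023, at 28536 and 33603 (log2 change -0.73, SE 0.16, limma BH-adjusted p = 0.0313). Lama1 passed the adjusted p with no compound.

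**Figure D3:**
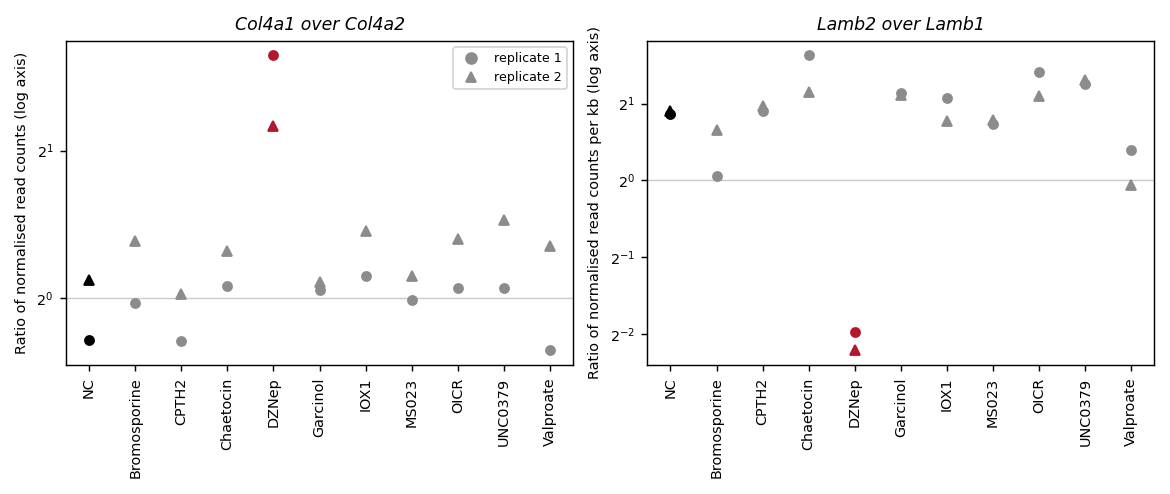
Ratio of Col4a1 to Col4a2 in normalised read counts (left) and of Lamb2 to Lamb1 in normalised read counts per kb (right) in every library, on log axes, with circles for replicate 1 and triangles for replicate 2. The DZNep libraries (red) stand apart in both, at 3.13 and 2.25 on the left and 0.254 and 0.216 on the right.

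Agrin, a heparan sulfate proteoglycan that organises the neuromuscular junction, fell with DZNep. Agrn lies on the minus strand of chromosome 4 (156165290 to 156197488). Its values were 16832 and 13812 in NC against 4850 and 4023 with DZNep, and the other 20 libraries lay between 9177 and 16832. The log2 change was -1.79 (SE 0.13, limma BH-adjusted p = 4.92e-06), or 3.45-fold lower. Valproate gave the next lowest values, 10168 and 9177, with a log2 change of -0.66 (SE 0.13, limma BH-adjusted p = 0.00547) that did not reach the fold, and the difference between DZNep and Valproate was itself called (log2 change -1.13, SE 0.13, limma BH-adjusted p = 6e-05).

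Nid2 was at 11304 and 8206 with DZNep and 20208 and 14626 in NC (log2 change -0.84, SE 0.2, limma BH-adjusted p = 0.00908). For Hspg2, the perlecan gene, the values were 7963 and 7223 against 13591 and 9525, which did not pass (log2 change -0.59, SE 0.22, limma BH-adjusted p = 0.0739). Nid1 spanned 12053 to 35221 and passed the adjusted p with no compound. In every library Agrn was higher per kb than Hspg2, with ratios down to 1.09.

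The upstream sequences of Agrn, Lamb2 and Col18a1 are shown because the first 2 fell together with DZNep and the third rose with Valproate, and that of Tgfbi because 3 compounds lowered it. They are the parts of RefSeq windows on GRCm38.p6 that end at most 30 bases after the GENCODE start of the gene. For Lamb2, Col18a1 and Tgfbi that start lies before the RefSeq start. All of the stretches are shorter than their windows. They cover chr4:156197459-156197738 (minus strand, 280 bases), chr9:108479612-108479765 (plus strand, 154 bases), chr10:77166519-77166780 (minus strand, 262 bases) and chr13:56609336-56609552 (plus strand, 217 bases). Capitals mark any GC box (letters GGGCGG), any E box (spelled as CACGTG), any box spelled CCAAT and also the TATA box in its form TATAAA, each sought on both strands with overlapping matches counted.
Agrn: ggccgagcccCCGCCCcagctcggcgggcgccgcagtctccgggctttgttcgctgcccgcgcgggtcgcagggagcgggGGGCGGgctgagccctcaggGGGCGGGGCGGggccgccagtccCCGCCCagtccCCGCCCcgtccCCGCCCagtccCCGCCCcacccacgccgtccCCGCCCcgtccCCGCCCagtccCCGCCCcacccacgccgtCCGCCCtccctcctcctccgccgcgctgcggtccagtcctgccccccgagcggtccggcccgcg
Lamb2: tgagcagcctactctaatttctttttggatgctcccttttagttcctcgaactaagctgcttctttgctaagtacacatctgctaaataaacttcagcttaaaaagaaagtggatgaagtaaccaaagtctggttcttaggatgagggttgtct
Col18a1: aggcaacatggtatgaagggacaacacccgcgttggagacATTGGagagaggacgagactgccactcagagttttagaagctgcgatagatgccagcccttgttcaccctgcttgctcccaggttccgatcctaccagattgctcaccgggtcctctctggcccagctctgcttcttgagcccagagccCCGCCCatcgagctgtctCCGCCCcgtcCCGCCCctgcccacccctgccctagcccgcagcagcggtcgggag
Tgfbi: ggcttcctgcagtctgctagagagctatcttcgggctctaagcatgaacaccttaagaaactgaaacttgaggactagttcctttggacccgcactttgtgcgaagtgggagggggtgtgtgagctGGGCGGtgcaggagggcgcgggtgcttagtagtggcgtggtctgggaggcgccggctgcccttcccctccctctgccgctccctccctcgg

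The Agrn stretch of 280 bases held 12 GC boxes and 40 CpG dinucleotides, and the shorter Lamb2 stretch of 154 bases 0 of the 4 motifs and 1 CpG. Whether these letters bear on the fall of Agrn and Lamb2 with DZNep was not tested. The Col18a1 stretch held 3 GC boxes, 1 CCAAT box and 14 CpG, and that of Tgfbi 1 GC box and 11 CpG. The whole RefSeq windows from which the Agrn, Lamb2, Col18a1 and Tgfbi stretches were taken held 42, 4, 16 and 22 CpG. Of the 37 genes, 24 had at least 1 RefSeq window of 250 bases before to 50 after a start, 29 windows in all, and 22 of these (75.9%) held a GC box, beside 35.7% of 32851 windows over all genes. CCAAT was in 34.5% of the matrix gene windows and in 37.4% of all, TATAAA in 10.3% and 13.6%, and CACGTG in 6.9% and 7.15%. The median number of CpG dinucleotides was 16 in the matrix gene windows and 7 in all, and the median GC content 61% and 52.7%. The windows over all genes were not matched to the matrix gene windows in base composition, and the GC box itself contains a CG. These shares describe the letters in the windows and do not show binding.

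Of the fibrillar collagens, Col1a1 moved in opposite directions with DZNep and Bromosporine. It codes for the chain present in 2 copies in each type I collagen molecule (chromosome 11, 94936224 to 94953042, plus strand). Its level was low in NC, at 24 in both libraries, and rose to 327 and 228 with DZNep (log2 change 3.45, SE 0.34, limma BH-adjusted p = 1.79e-05), or 11-fold. With Bromosporine it was 7 and 6 (log2 change -1.74, SE 0.34, limma BH-adjusted p = 0.00931). Every other library lay between 10 and 65, so both compounds were outside the range of the rest, and the direct difference between them was -5.19 (SE 0.34, limma BH-adjusted p = 6.44e-07).

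The call with Bromosporine was lost without NC replicate 1 and without Bromosporine replicate 2, and it rests on single-digit values. Col1a2, the partner chain, was at 14 and 31 in NC, 33 and 47 with DZNep and 7 and 0 with Bromosporine, and was not called with any compound. MS023 gave the next highest Col1a1 values, 50 and 65 (log2 change 1.21, SE 0.34), which did not pass against NC (limma BH-adjusted p = 0.0901).

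Col5a1, a chain that starts fibril assembly, was 1086 and 1393 with DZNep, 675 and 991 with Valproate, 316 and 505 in NC and 244 and 258 with Bromosporine. Against NC it was called with neither DZNep (limma BH-adjusted p = 0.0878) nor Valproate (0.349), while Bromosporine against DZNep was called (log2 change -2.29, SE 0.65, limma BH-adjusted p = 0.0175). In a fit with the replicate number as a block, Col5a1 was called against NC with both DZNep and Valproate. Col5a2 stayed between 959 and 1914.

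Col3a1 could not be read as a group difference. Its values fell into 9 libraries at 2 to 4 and 13 at 307 to 851, with 5 groups holding 1 library of each kind, among them NC (4 and 743). Both libraries were low with Chaetocin and CPTH2 and both were high in 4 groups. Col3a1 overlaps the annotated gene Gm47302 on the same strand.

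Collagen VI, which forms beaded filaments, was near the bottom of the table. Col6a1 (minus strand of chromosome 10, 76708792 to 76726168) had a value of 1 in each NC library, against 48 and 28 with MS023. The log2 change of 4.24 (SE 0.92, limma BH-adjusted p = 0.0315) depends on the pseudocount at such levels, so no fold is given. UNC0379, at 21 and 39, overlapped MS023 and was not called (limma BH-adjusted p = 0.399), and DZNep gave 34 and 3. Leaving out any 1 of the 4 libraries compared removed the MS023 call.

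**Figure D4:**
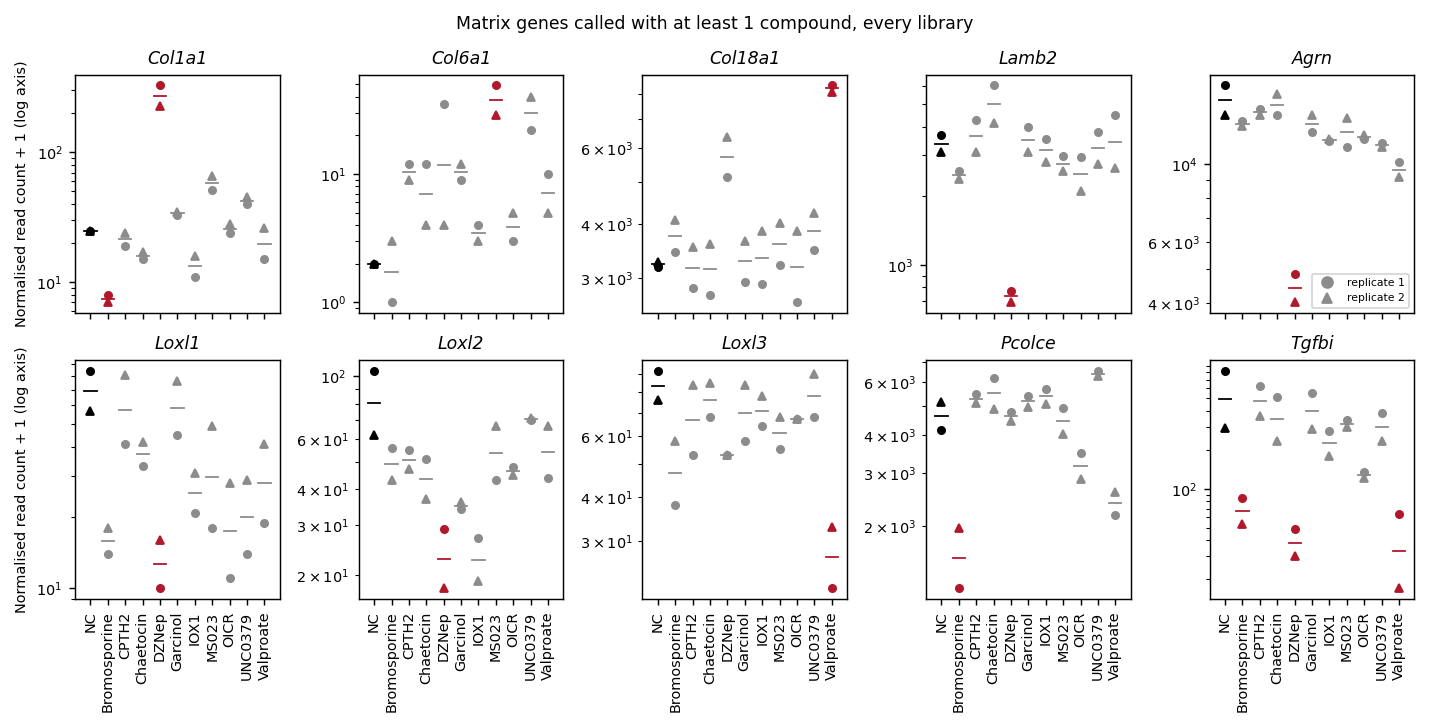
Normalised read count + 1 (log axis) in every library for the 10 genes called with at least 1 compound, with circles for replicate 1, triangles for replicate 2 and a bar at the mean on the log scale. NC is black and the compounds with a call are red, and Tgfbi has red points for Bromosporine (84 and 52), DZNep (48 and 29) and Valproate (63 and 16).

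Of the collagen hydroxylases, 0 were called against NC, while Plod1 and Plod3 were among the genes that differed over the 11 groups in the F test. Plod3, which hydroxylates lysine and adds sugars to it, stayed between 2116 and 3015 in all libraries, and P3h1 between 1876 and 2681. Plod3 was 2116 and 2299 with Bromosporine and 2850 and 2820 in NC, a log2 change of -0.36 (SE 0.08) that passed the adjusted p (limma BH-adjusted p = 0.0205) without reaching the fold. Plod1 was called directly between DZNep (519 and 472) and Valproate (1645 and 1027), with a log2 change of -1.39 (SE 0.3, limma BH-adjusted p = 0.0046), but with no compound against NC (932 and 813). With MS023 it was at 1599 and 1480 (log2 change 0.82, SE 0.3, limma BH-adjusted p = 0.194). Plod3 shares 14.4% of its 31-base stretches with other transcripts, mostly Znhit1 on the opposite strand. Whether counting used strand was not stated, so such genes are uncertain.

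Lysyl oxidase transcripts were low throughout. Loxl1 was at 83 and 56 in NC, the former being the highest of all 22 libraries, and at 9 and 15 with DZNep (log2 change -2.45, SE 0.63, limma BH-adjusted p = 0.0119). OICR (10 and 27), Bromosporine (13 and 17) and UNC0379 (13 and 28) were also low without a call, so the DZNep libraries overlapped the range of the others (10 to 83). The call was lost without NC replicate 1, without DZNep replicate 1, when DZNep was set against the mean of the other compounds, and with adjustment over all 10 comparisons together.

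Loxl2 had values of 103 and 61 in NC, against 28 and 17 with DZNep (log2 change -1.81, SE 0.36, limma BH-adjusted p = 0.00272). Against the mean of the other compounds the log2 change was -0.99, under the fold. IOX1 gave 26 and 18, a log2 change of -1.83 (SE 0.36) that did not pass with adjustment within IOX1 (limma BH-adjusted p = 0.074). Loxl2 is uncertain, since 47.3% of its 31-base stretches occur in transcripts of other genes, mostly Gm21451.

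Loxl3 fell with Valproate, from 91 and 75 to 21 and 32, below the other 20 libraries (37 to 91). Its log2 change was -1.63 (SE 0.32, limma BH-adjusted p = 0.00577), and the call was lost without NC replicate 1 and without Valproate replicate 1. It overlaps Htra2 on the opposite strand (11.3% shared stretches). Lox itself was listed at 0 in most libraries and reached 33 in NC replicate 2.

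Pcolce, the enhancer of procollagen C-proteinase (minus strand of chromosome 5, 137605103 to 137613784), was at 1243 and 1971 with Bromosporine, against 4181 and 5159 in NC. All of the other 20 libraries were above, at 2179 to 6532. The log2 change was -1.57 (SE 0.2, limma BH-adjusted p = 0.000799), a 2.97-fold fall, and it was also called directly against DZNep (4779 and 4465; limma BH-adjusted p = 8.55e-05). Valproate came next, at 2179 and 2591 (log2 change -0.97, SE 0.2, limma BH-adjusted p = 0.0072), just short of the fold of 2, and no difference between Bromosporine and Valproate was called. Pcolce overlaps Fbxo24 on the same strand and Gm36266 on the other. Bmp1, the proteinase itself, lay between 7 and 68 and passed the adjusted p with no compound.

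Tgfbi was the gene of the set called with the most compounds. It codes for a secreted protein induced by TGF-beta that binds collagen and integrins (chromosome 13, 56609523 to 56639562, plus strand). Its values were 813 and 296 in NC, 84 and 52 with Bromosporine, 48 and 29 with DZNep and 63 and 16 with Valproate. The log2 changes were -2.87 (SE 0.64, limma BH-adjusted p = 0.0192), -3.68 (SE 0.64, 0.00109) and -3.9 (SE 0.64, 0.00197), in that order, or 7.33-, 12.8- and 14.9-fold falls. With 1 library left out at a time these log2 changes ran from -2.15 (without NC replicate 1) to -3.6 (without NC replicate 2) for Bromosporine, from -2.95 to -4.41 (without the same libraries) for DZNep, and from -2.94 (without Valproate replicate 2) to -4.85 (without Valproate replicate 1) for Valproate.

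The Valproate libraries spanned both DZNep values and the lower Bromosporine value, and no direct comparison among them called Tgfbi. OICR was the next lowest at 134 and 121, with a log2 change of -1.94 (SE 0.64, limma BH-adjusted p = 0.241), and the remaining 6 compounds and NC lay between 179 and 813. Replicate 1 of NC was the highest of all libraries. Without it the Bromosporine call was lost, as it was without either Bromosporine library and against the mean of the other compounds, whereas the DZNep and Valproate calls were lost only in a fit of the 2 groups alone.

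Sparc stood at 7573 and 6058 in NC, 3764 and 3781 with Bromosporine (log2 change -0.84, SE 0.21, limma BH-adjusted p = 0.0319) and 3568 and 3928 with Valproate (-0.86, SE 0.21, 0.0182), under the fold in both. DZNep gave 10935 and 6593, and the direct differences to Valproate (log2 change 1.18, SE 0.21, limma BH-adjusted p = 0.00131) and to Bromosporine were called. Fbln1 and Fbn1, which take part in elastic fibres, passed the adjusted p with no compound. Thbs1, an adhesive glycoprotein, was at 0 and 12 in NC, 21 and 14 with DZNep and 21 and 26 with Valproate, and was not called.

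The 3 compounds with the most calls were also compared with each other, which does not use NC. Bromosporine against DZNep called 10 of the 36 genes (27.8%, beside 14.8% of all genes), DZNep against Valproate 6 (16.7%, beside 10.8%) and Bromosporine against Valproate 2 (5.56%, beside 8.64%). Relative to DZNep, the Bromosporine libraries were lower in Col1a1, Col5a1, Col6a1, Col4a1, Lama5, Pcolce and Sparc and higher in Lamb2, Agrn and Loxl2. DZNep exceeded Valproate in Col1a1 and Sparc and was below it in Lamb2, Agrn, Plod1 and Loxl2. The Lamb2 difference from Valproate (log2 change -2.24, SE 0.28, limma BH-adjusted p = 0.000119) was about as large as that from NC. Bromosporine was below Valproate in Col1a1 (log2 change -1.4, SE 0.34, limma BH-adjusted p = 0.0137) and Col18a1 (-1.13, SE 0.22, 0.00405).

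Replicate 1 and replicate 2 differed in the same direction across groups for part of the set. In 11 of 11 groups replicate 2 was the higher for Col5a1 and Bmp1, and replicate 1 for Lama1, Lamb2, Plod1, Fbln1 and Tgfbi. These 7 are 19.4% of the tested genes, beside 21% of all genes, so the pattern was about as frequent as elsewhere in the table. For Lama1 the median ratio of replicate 1 to replicate 2 was 1.77, for Tgfbi 1.65, and for Col5a1 replicate 2 was the higher by a median of 2.07 times. This spread enters the standard errors of those genes.

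**Figure D5:**
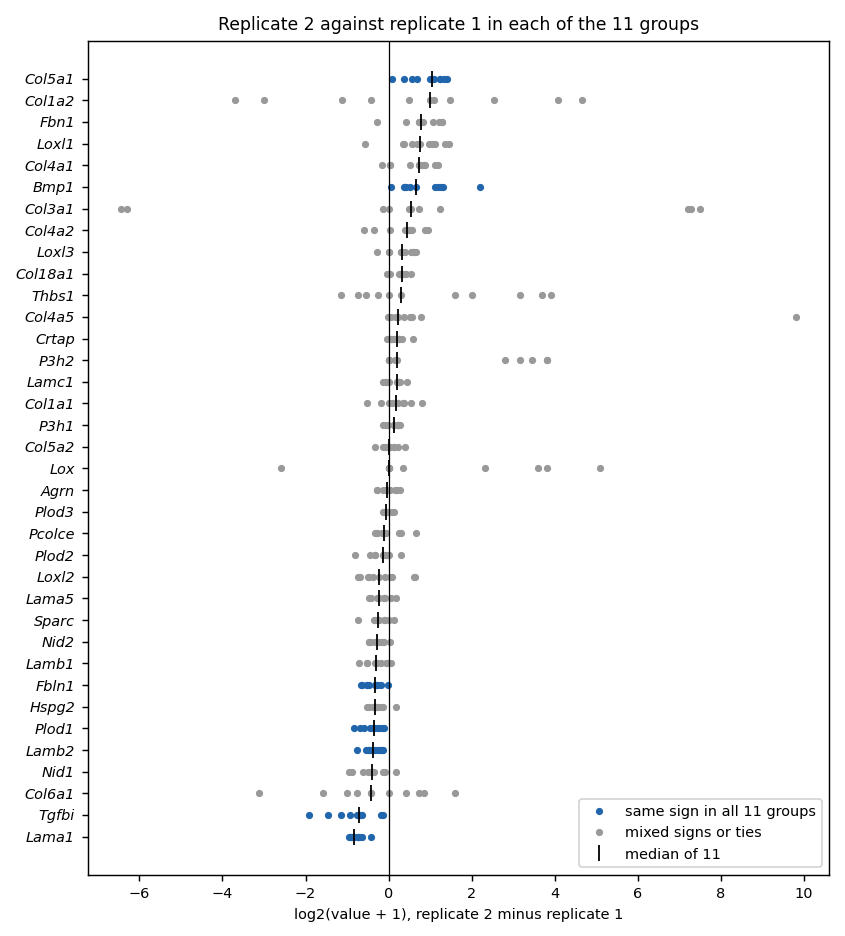
Difference in log2(value + 1) between replicate 2 and replicate 1 (horizontal) for each of the 36 tested genes, with a point for each of the 11 groups and a black bar at the median. Blue points mark the 7 genes with the same sign in all groups, from Lama1 at the bottom (median -0.83) to Col5a1 at the top (median 1.05).

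Other genes of the pathway were taken from a list of 97, of which 84 were tested. With DZNep 24 of the 84 were called (28.6%), 14 higher and 10 lower, beside 11.4% of all genes. Valproate gave 13 (15.5%, 5 higher and 8 lower, beside 5.28%), Bromosporine 12, all lower (14.3%, beside 3.34%), OICR 6, all lower (7.14%, beside 0.388%), and MS023 1, lower (1.19%, beside 0.973%). Serpinh1, the collagen chaperone of the endoplasmic reticulum, fell with 4 compounds, from 4328 and 3096 in NC to 255 and 441 with OICR, 769 and 759 with Bromosporine, 941 and 847 with Valproate and 1312 and 959 with DZNep. The same 4 compounds lowered the laminin receptor Bcam and the membrane metalloproteinase Mmp14, the latter from 352 and 347 to 31 and 44 with Valproate (log2 change -3.21, SE 0.22, limma BH-adjusted p = 7.55e-06).

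The laminin chains Lama3 and Lamb3, known from epithelial basement membranes, were lower with Bromosporine and higher with DZNep. With Bromosporine, Lama3 (41 and 78, against 219 and 217 in NC) and Lamb3 (18 and 14, against 39 and 54) were called lower, together with the laminin receptor subunit Itgb4. With DZNep Lama3 (553 and 352) and Lamb3 (101 and 99) were called higher. Lama4, an alpha chain of vascular laminins, was higher with DZNep (201 and 313) and with Valproate (186 and 267) than in NC (84 and 91).

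DZNep raised the cartilage collagen Col2a1 (791 and 781, against 99 and 123), the collagen receptors Ddr1 and Ddr2 (Ddr2 2442 and 2408, against 518 and 593), the prolyl hydroxylase P4ha2, and Fkbp10, a prolyl isomerase that assists collagen folding. Fkbp10 was at 483 and 573 with DZNep and 58 and 89 in NC (log2 change 2.85, SE 0.4, limma BH-adjusted p = 0.000253). It fell with Bromosporine (15 and 22) and with Valproate (12 and 33). Fbln2, a basement membrane fibulin, rose with Valproate from 26 and 41 to 728 and 551 (log2 change 4.24, SE 0.35, limma BH-adjusted p = 1.58e-05), and Lum, a proteoglycan of collagen fibrils, was at 197 and 331 with Valproate and 346 in CPTH2 replicate 1, and was listed at 0 in all other libraries.

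Ltbp3, which holds latent TGF-beta in the matrix, fell with Valproate (286 and 205 to 13 and 9), DZNep (29 and 43) and Bromosporine (65 and 21), the 3 compounds with which Tgfbi was called. OICR was also low for Ltbp3, at 98 and 74, without a call. A link between Ltbp3 and Tgfbi was not tested. Fn1, fibronectin, was called lower with DZNep, at 92487 in both libraries and 221616 in both NC libraries. In every library 10 genes shared the largest value of 221616, and Fn1 took only 3 different values over the 22 libraries, so the size of its fold is set by the steps of the shared distribution. Lamc1 took 11 different values.

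Markers of other cell types moved with some of these results. The summed endoderm markers were 712 and 1030 with DZNep and 619 and 833 with Valproate, beside 614 and 516 in NC and 281 to 540 with the other 8 compounds. With DZNep Hnf4a, Pdgfra and Dab2 were called higher and Gata4 lower. The summed fibroblast markers were 562 and 510 with Valproate, 336 and 368 with DZNep, 132 and 132 with Bromosporine and 305 and 278 in NC. Thy1 made up most of the Valproate value (358 and 303, against 12 and 11), while Prrx1, Cnn1 and S100a4 did not exceed 10, 1 and 4 in any library. Of the endothelial markers, Tek was at 580 and 518 in NC, 3577 and 3417 with DZNep, 1111 and 1621 with Valproate and 222 and 262 with Bromosporine, called with all 3. The sum over 4 such markers was 7497 and 6758 with DZNep, 6184 and 5631 with Valproate, 2855 and 3077 with Bromosporine and 6402 and 4841 in NC. Most of the NC sum was Pecam1, at 5695 and 4160. Pecam1 was at 3692 and 3095 with DZNep, opposite in direction to Tek, and at 2520 to 6150 over all libraries. Kdr lay between 93 and 264. Cdh5 was at 1 and 1 in NC and did not exceed 12 in any library. The summed trophoblast markers were 5466 and 5947 with Valproate and 5591 and 4387 with Bromosporine, beside 3712 and 3306 in NC. Tfap2c made up most of each sum, at 4958 and 5480, 4930 and 3721, and 3379 and 2712, in that order. Cdx2, Hand1 and Gcm1 did not exceed 24, 24 and 9 in any library. Of the 6 trophoblast markers tested, 0 were called with Valproate (beside 5.28% of all genes). With Bromosporine 2 were called, 1 higher and 1 lower (33.3%, beside 3.34%). With DZNep 2 were also called, 2 higher and 0 lower (33.3%, beside 11.4%), and the summed markers were 4032 and 3338. The part of these cell types in the changes of Col1a1, Col18a1, Lama5 and Tgfbi was not tested.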

How the data were processed

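Messenger RNA of mouse E14 ES cells was sequenced in 22 libraries, 2 for each of 10 compounds and for NC, and the titles and treatment labels gave each library its group and number. The deposited values are scores, namely read counts that the authors normalised by the full-quantile method and rounded to whole numbers, so that they are no longer raw counts. The submitters' processing notes name bcl2fastq, Bowtie2 2.2.5, RSEM and mm10. The methods of the study name no compound, and their gene-level route is Bowtie2 with RSEM followed by EDASeq normalisation. Full-quantile normalisation hides depth and any change shared by most genes, so no interval that needs depth is given. A second table held the authors' means of each group, differed from the means of the first by at most 0, and was not used. All value columns matched a sample title (0 unmatched).

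The analysis ran on log2(value + 1), with limma 3.58.1 under R 4.3.3. It kept the 17275 of 18487 genes that reached 10 in 2 or more libraries. A model of 11 group means was fitted to all libraries, with 11 residual degrees of freedom, trended variance moderation, two-sided tests and Benjamini-Hochberg adjustment within each of 10 comparisons with NC and 3 direct comparisons of compounds. Calls needed an adjusted p under 0.05 and a fold change over 2. The fit was tested on simulated data drawn independently for each library. Those data held no differences shared by libraries of the same replicate number, so the simulation does not cover them. The members, the lists and the alternatives were chosen with earlier results of these data known. Any member could be named, and other pathway genes and markers only where called or where they define a cell type. Direct comparisons took the 3 compounds with the most calls over all genes. Positions, lengths and shared 31-base stretches came from GENCODE M21 (GRCm38), and promoter windows from RefSeq (GRCm38.p6), matched by symbol for 24 of 37 genes. Python 3.11.15, pandas 2.3.3, numpy 2.4.6 and matplotlib 3.10.9 were used. Alternatives were a pseudocount of 10, no filter, a fit of only the 2 groups compared, the replicate number as a block, median-ratio rescaling, the mean of the other compounds as reference, adjustment over all 10 comparisons, and each library left out in turn. Some genes of the lists are not reported here.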

Additional observations from a re-analysis of the deposited data

How the results depend on the processing

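Depth is unknown, so a value of 0 has no detection limit here, and 2 libraries a group limit every comparison. Of 143 repeats of the 13 calls under the alternatives, 114 kept the call, 29 lost it and 0 reversed. Lamb2 with DZNep kept its call under all of them. Fitting only the 2 groups compared left 0 calls for Bromosporine, MS023 and Valproate, 1 for DZNep (Lamb2), 0 for DZNep against Valproate, 0 for Bromosporine against Valproate and 4 for Bromosporine against DZNep. With each library left out in turn, the calls ran from 1 to 3 for Bromosporine (1 without NC replicate 1, when Pcolce alone was called), 0 to 0 for MS023 and 1 to 3 for Bromosporine against Valproate (1, Col18a1, without Valproate replicate 2). A pseudocount of 10 left 1 call for Bromosporine against Valproate. Against the mean of the other compounds, IOX1 had 1 call (Col1a1) and MS023 2. By that reference DZNep also gained Col5a1 and Col4a1 and lost Loxl1 and Loxl2, and Bromosporine gained Col6a1 and Col4a5 and lost Tgfbi. Adjustment over all 10 comparisons gave 1 call for IOX1 (Loxl2) and 1 for UNC0379 (Col6a1). The replicate numbers were not taken to pair the samples, since the labels do not say what a number shares. Deviations of same-numbered libraries correlated across genes at over 0.1 in 51 of 55 pairs of groups, with 0.0535 the lowest, and 20 of 22 libraries correlated best, outside their group, with a library of the same number. With the replicate block, calls were 1 for IOX1, 2 for MS023, 2 for OICR (Loxl1 and Tgfbi), 5 for Valproate (Col5a1 and Loxl1 added) and 5 for Bromosporine against Valproate, and 26 genes differed over the 11 groups in the F test. The block gave 9 calls for DZNep (Col5a1, Col6a1 and Col4a1 added) and 4 for Bromosporine (Loxl1 added). The cause of these shifts was not tested.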

Other observations

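Among the other matrix genes, several proteases and their inhibitors were called. Mmp2, a gelatinase, was at 151 and 132 in NC and reached 1267 and 929 with Valproate (log2 change 2.93, SE 0.23, limma Benjamini-Hochberg adjusted p = 1.46e-05) and 454 and 410 with DZNep. Mmp11 was lower with DZNep (567 and 596, against 1880 and 1490). Timp3, an inhibitor bound to the matrix, was higher with DZNep (142 and 125, against 52 and 43), and Timp2 lower, although its DZNep libraries differed (2 and 25, against 128 and 88). Adamts14, which trims the N-terminal end of procollagen, was called lower with 4 compounds, namely Bromosporine (281 and 224), DZNep (228 and 343), MS023 (231 and 318) and OICR (242 and 223), from 741 and 519 in NC. Adamts3, a proteinase with the same role, was called higher with DZNep (48 and 107, against 1 and 2).

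Further calls concerned lysyl oxidases and elastic fibre proteins outside the main set. Loxl4 was at 4 and 2 in NC, 43 and 21 with DZNep and 35 and 36 with Valproate, while Loxl1, Loxl2 and Loxl3 moved down where they were called. Efemp2, a fibulin that brings lysyl oxidase to elastin, fell with Valproate from 612 and 614 to 247 and 309 (log2 change -1.15, SE 0.12, limma Benjamini-Hochberg adjusted p = 8.71e-05). Mfap5, a microfibril protein, was higher with DZNep (186 and 261, against 73 and 83). Frem2, which anchors embryonic epithelium to its basement membrane, was lower with DZNep (250 and 214) and with OICR (254 and 255) than in NC (578 and 566).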
